A study of Mus musculus with 9 samples.

Results

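The transcripts described here come from 37 genes of cholesterol and fatty acid metabolism, most of them known as targets or regulators of the SREBP transcription factors. They were taken by symbol from 55335 gene identifiers in the read count files, and comprise 19 sterol synthesis enzymes, 6 regulators and transport genes, 10 fatty acid and lipid genes, and 2 targets of the liver X receptors (LXR). RNA was sequenced from D2A1-d cells, a mouse breast carcinoma line, in 3 groups of 3 libraries. The shMed4 #1 and shMed4 #4 groups carried a different short hairpin RNA against Med4, a subunit of the Mediator complex, and are labelled as Med4 knockdown. The NTC group carried a non-targeting control hairpin and is labelled wild type. All 9 libraries are labelled untreated and came from cells grown in medium with fetal bovine serum, and all groups, NTC included, had been transduced. The title of the study places MED4 in metastatic dormancy, and the comparisons below ask how this lipid gene set stood in each knockdown. The labels call the libraries biological replicates without saying whether each was transduced separately or whether the lines are clones. The p-values therefore measure the spread between these libraries.

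Cells build cholesterol from acetyl-CoA through mevalonate, farnesyl diphosphate, squalene and lanosterol. SREBP proteins are made as precursors in the membrane of the endoplasmic reticulum, where Scap escorts them to the Golgi for cleavage when sterols are low and Insig proteins hold them back when sterols are high. The cleaved factor enters the nucleus and acts on sterol enzyme genes, mainly as the product of Srebf2, and on fatty acid genes, mainly as a product of Srebf1. Oxysterols activate LXR, which turns on cholesterol exporters such as Abca1 and the ubiquitin ligase Mylip, which removes lipoprotein receptors. Proliferating tumour cells use both pathways for membranes.

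Promoter sequences were looked up because most of the sterol genes were called higher in both knockdowns, as described below. Windows of 250 bases before the transcript start were found in the RefSeq table (GRCm38.p6) for 30 of the 37 genes, in 38 windows. Fdps, Fdft1, Sqle, Scd1, Scd2, Fads1 and Stard4 had none. The windows of Hmgcs1 (chr13:119690101-119690350, plus strand), Mvd (chr8:122443423-122443672, minus strand), Ebp (chrX:8193513-8193762, minus strand), Sc5d (chr9:42264301-42264550, minus strand), Hsd17b7 (chr1:169969242-169969408, minus strand) and Fasn (chr11:120824548-120824797, minus strand) are printed from 5′ to 3′. They show 5 sterol enzyme genes that rose with both hairpins and 1 fatty acid gene that passed with shMed4 #4 and not with shMed4 #1. For Hsd17b7 the printed stretch is the 167 bases of its window outside annotated exons. Capitals mark CCAAT or CACNCCAC in either orientation.
Hmgcs1: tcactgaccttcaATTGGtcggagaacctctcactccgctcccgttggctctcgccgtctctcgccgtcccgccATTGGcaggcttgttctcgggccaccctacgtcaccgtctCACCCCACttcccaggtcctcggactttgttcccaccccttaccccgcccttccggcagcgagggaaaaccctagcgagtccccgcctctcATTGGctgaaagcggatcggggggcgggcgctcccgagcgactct
Mvd: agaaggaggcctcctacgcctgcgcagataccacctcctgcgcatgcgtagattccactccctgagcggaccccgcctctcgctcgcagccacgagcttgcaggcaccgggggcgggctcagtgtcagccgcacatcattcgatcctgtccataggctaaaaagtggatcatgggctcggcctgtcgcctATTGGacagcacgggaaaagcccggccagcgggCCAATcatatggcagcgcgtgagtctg
Ebp: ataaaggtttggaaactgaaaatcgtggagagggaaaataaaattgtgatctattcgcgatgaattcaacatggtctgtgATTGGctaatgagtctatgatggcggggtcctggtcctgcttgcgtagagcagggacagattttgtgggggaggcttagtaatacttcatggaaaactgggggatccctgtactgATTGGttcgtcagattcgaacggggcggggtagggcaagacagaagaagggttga
Sc5d: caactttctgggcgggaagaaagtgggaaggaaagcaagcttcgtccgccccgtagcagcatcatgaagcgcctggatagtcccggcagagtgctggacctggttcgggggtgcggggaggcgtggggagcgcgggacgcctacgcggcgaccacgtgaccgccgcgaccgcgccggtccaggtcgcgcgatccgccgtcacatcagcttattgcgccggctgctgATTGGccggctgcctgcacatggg
Hsd17b7: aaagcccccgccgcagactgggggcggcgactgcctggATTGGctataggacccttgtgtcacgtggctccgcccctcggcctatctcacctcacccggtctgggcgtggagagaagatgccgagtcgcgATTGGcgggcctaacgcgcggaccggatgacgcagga
Fasn: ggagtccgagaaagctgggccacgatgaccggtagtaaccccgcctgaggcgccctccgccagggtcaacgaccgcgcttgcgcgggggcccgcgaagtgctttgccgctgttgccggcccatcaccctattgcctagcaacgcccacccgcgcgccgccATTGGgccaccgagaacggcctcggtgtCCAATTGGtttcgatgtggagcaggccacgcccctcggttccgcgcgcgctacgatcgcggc
The CCAAT box, the letters bound by NF-Y, a known partner of SREBPs at sterol genes, stood on one strand or the other in the windows of 15 of 16 sterol synthesis genes (93.8%). It was present in 22 of all 30 genes with a window (73.3%), against 40.7% of the 9870 genes tested that have a window and 37.5% of all 27025 genes in the table. Of the 7 fatty acid and lipid genes with a window, 2 held it (28.6%). Counted by window, the share was 15 of 19 for sterol synthesis genes (78.9%), against 35.5% of windows of genes tested. Dhcr7 counted only through its window at chr7:143829964-143830213, all 250 bases of which lie in annotated exons. Its windows nearer the gene start held none. The windows of Idi1 and Tm7sf2 also lie wholly in annotated exons. Among sterol synthesis genes, the CCAAT box also stood in Ggps1, Pmvk and Tm7sf2, which passed in neither comparison with NTC. The window of Acat2, called higher in both, held none. What part these letters have in the rises was not tested. The sterol regulatory letters TCACNCCAC were found in the Hmgcs1 window alone among the 30, and in 1.3% of the genes tested with a window. The shorter CACNCCAC, which lies within them, was found in Hmgcs1, Acat2 and Insig1 (10.0%, against 6.5% of the genes tested with a window). GC boxes (GGGCGG) occurred in 80.0% of the 30 genes and in 63.4% of the genes tested with a window. Both strands were searched, a gene with several windows counted once if any held the letters, and in Fasn 2 of the marked CCAAT matches overlap each other. These are matches of letters, and binding was not measured.

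Each library held between 7572114 and 8582235 reads assigned to genes. Levels are given as CPM, read counts scaled to the size of each library with TMM factors. Med4 itself had 4.97, 4.23 and 4.4 CPM with shMed4 #1 and 8.05, 7.45 and 6.13 CPM with shMed4 #4, against 29.4, 27.9 and 25 CPM with NTC. That left 16.6% of the NTC level with shMed4 #1 and 26.4% with shMed4 #4 (edgeR quasi-likelihood test, adjusted p = 3.92e-18 and 8.44e-16) by comparison with NTC, and the 2 hairpins differed from each other (log2 0.67, shMed4 #4 over shMed4 #1, adjusted p = 0.00401). Of 8 mammary epithelial markers, Krt8 and Krt18 were the only ones that passed the filter on low counts, and their list summed to 94.3 to 112 CPM with shMed4 #1, 177 to 202 CPM with shMed4 #4 and 24.1 to 25.2 CPM with NTC. Cdh1 had no read and Epcam 1 read in the 9 libraries together, so these defining epithelial markers were absent. Adipocyte and hepatocyte markers, from cell types with much lipid synthesis, summed to at most 0.387 and 0.366 CPM in any library, and leukocyte markers to at most 1.1 CPM, with Cd3e, Lep and Alb at 0 reads. The 4 endothelial markers summed to 2.73 to 3.93 CPM with shMed4 #1, 2.07 to 3.1 CPM with shMed4 #4 and 1.29 to 1.87 CPM with NTC, most of it Cdh5. The share of reads from mitochondrially encoded genes also moved with the groups, at 5.513 to 6.12% with shMed4 #1, 5.813 to 6.038% with shMed4 #4 and 4.429 to 4.576% with NTC. What part the keratin and mitochondrial shifts have in the results below was not tested.

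All 37 genes passed the filter on low counts, and more of them were called higher than lower in both knockdowns. With shMed4 #1, 23 genes were higher than in NTC and 2 lower, while 12 did not pass (edgeR, Benjamini-Hochberg adjusted p under 0.05 over 14335 genes). That is 62.2% called higher, against 21.8% of all genes tested, and 5.41% called lower, against 19.8%. With shMed4 #4, 27 genes were higher and 4 lower, or 73.0% and 10.8%, against 27.8% higher and 27.3% lower among all genes tested. The median log2 fold change of the 37 was 0.35 with shMed4 #1 and 0.43 with shMed4 #4, against -0.01 over all genes in both. Both comparisons use the same 3 NTC libraries, so they are given side by side and not as 2 independent counts. In bulk RNA, a change in the make-up of the cultures and a change in RNA per cell cannot be told apart, and levels are relative to the rest of the transcriptome.

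**Figure D1:**
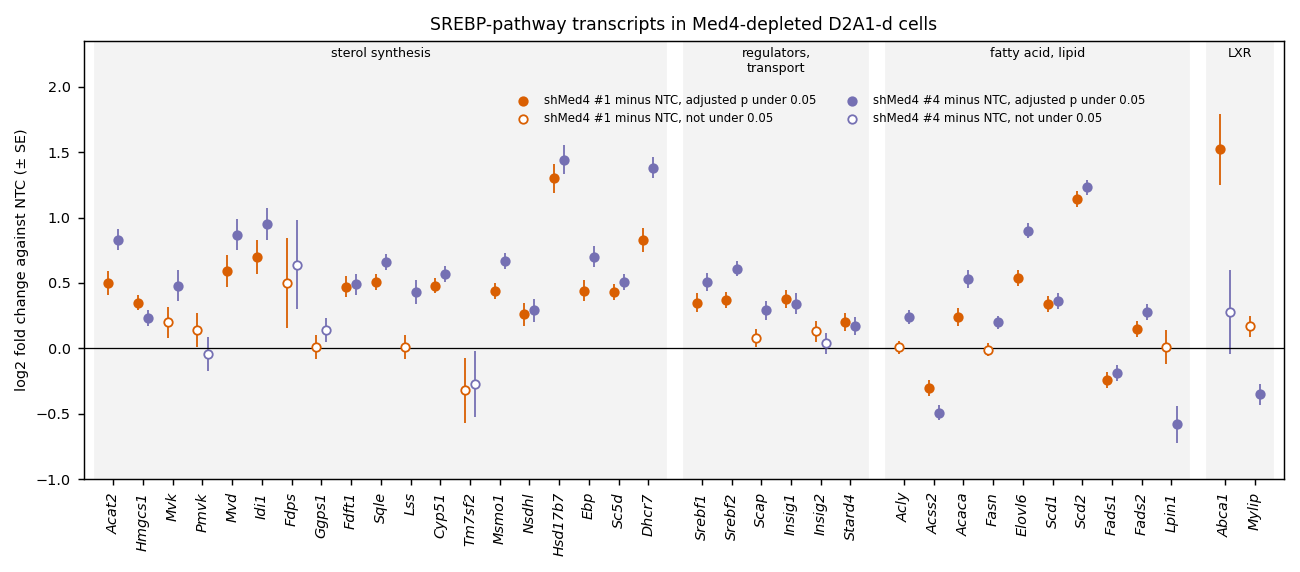
Log2 fold change of each of the 37 genes against NTC (vertical axis, bars ± SE) for shMed4 #1 (orange) and shMed4 #4 (purple), in pathway order along the horizontal axis. Filled points passed adjusted p under 0.05; most sterol synthesis genes lie above 0 with both hairpins, and Hsd17b7, Dhcr7 and Scd2 lie highest apart from Abca1 with shMed4 #1.

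Of the 19 sterol synthesis enzymes, 13 rose with shMed4 #1 (68.4%, against 21.8% of all genes tested) and 15 rose with shMed4 #4 (78.9%, against 27.8%). None of the 19 was called lower, while 6 did not pass with shMed4 #1 and 4 did not pass with shMed4 #4. Their median log2 fold change was 0.44 with shMed4 #1 and 0.57 with shMed4 #4. Their summed level was 868.8 to 879.3 CPM in the shMed4 #1 libraries and 947.8 to 992.0 CPM in the shMed4 #4 libraries, against 634.4 to 662.9 CPM in NTC libraries. The 3 groups did not overlap in this sum.

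At the entry of the pathway, Acat2, the cytosolic thiolase that makes acetoacetyl-CoA, had 36, 36.2 and 35.2 CPM with shMed4 #1 and 43.2, 44.0 and 47.7 CPM with shMed4 #4, against 26.6, 26.6 and 22.7 CPM with NTC. Its log2 fold changes were 0.50 ± 0.09 (SE, adjusted p = 1.2e-05) and 0.83 ± 0.08 (adjusted p = 1.09e-10). Acat2 shares 39.1% of its 50-base stretches with the paralog Acat3, whose log2 fold changes were 0.08 and 0.33. It shares 11.2% with Tcp1 (0.14 and 0.28). Reads from the shared stretches cannot be told apart, and reads that align to several places were not counted. Hmgcs1, the cytosolic HMG-CoA synthase, had 121, 115 and 111 CPM with shMed4 #1 and 99.9, 106 and 112 CPM with shMed4 #4, against 92.0, 86.3 and 93.0 CPM with NTC. All 6 knockdown libraries lay above NTC, and here shMed4 #1 gave the larger log2 fold change (0.35, adjusted p = 7.5e-06), though its difference from shMed4 #4 (0.23, adjusted p = 0.00154) did not pass (-0.13, adjusted p = 0.105). Genes around Hmgcs1 had a median log2 fold change of -0.25 with shMed4 #4 (25 tested genes on each side), and relative to them it changed by 0.47 (adjusted p = 2.22e-08). Hmgcs1 shares 12.1% of its exon bases with Gm48342 on the other strand, which had 1981 reads against 7630 for Hmgcs1. Gm48342 had log2 fold changes of 0.26 with shMed4 #1 and 0.14 with shMed4 #4.

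The enzymes that turn mevalonate into isoprenoid units moved unevenly. Mvd, the mevalonate diphosphate decarboxylase, had 15.5, 15.9 and 19.3 CPM with shMed4 #1, 21.5, 19.9 and 20.5 CPM with shMed4 #4 and 11.6, 11.8 and 10.4 CPM with NTC. Idi1, the isopentenyl diphosphate isomerase, had 19.9, 15.7 and 17.1 CPM with shMed4 #1, 23.4, 18.1 and 20.8 CPM with shMed4 #4 and 10.9, 11.2 and 10.2 CPM with NTC. Both genes were above every NTC library in all 6 knockdown libraries, and rose 1.51-fold and 1.63-fold with shMed4 #1 and 1.83-fold and 1.93-fold with shMed4 #4 (adjusted p between 3.93e-08 and 0.000156). Genes around Mvd were also higher, with medians of 0.17 and 0.29. Under every alternative Mvd stayed called, with log2 values down to 0.42 with shMed4 #1 and 0.59 with shMed4 #4. The kinases upstream of Mvd and Idi1 did less. Mvk, mevalonate kinase, passed with shMed4 #4 alone (log2 0.48, adjusted p = 0.000586) and not with shMed4 #1 (0.20, adjusted p = 0.196), and with the median of its neighbours taken off, the shMed4 #4 value was 0.25 (adjusted p = 0.0706). Pmvk, phosphomevalonate kinase, stood at 10.6 to 15.2 CPM over all libraries and passed in neither knockdown (log2 0.14 and -0.04).

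Farnesyl diphosphate synthase (Fdps) could hardly be measured, with 163 reads in the 9 libraries together. It shares 26.7% of its exon sequence with the overlapping gene Gm43738 and further stretches with processed pseudogenes, and reads that align to several places were not counted. Its CPM values of 2.11, 2.3 and 2.66 with shMed4 #1 and 2.93, 2.73 and 2.21 with shMed4 #4 overlapped the 2.98, 1.29 and 0.736 of NTC, which spread more widely than either knockdown. Without NTC replicate 1 its log2 fold changes were 1.22 (adjusted p = 0.0136) and 1.37 (adjusted p = 0.0033), and with it they were 0.50 and 0.64 and did not pass. Ggps1, which makes geranylgeranyl diphosphate for protein prenylation and lies on a side branch, passed in neither comparison (log2 0.01 and 0.14). Its 28.1 to 32.6 CPM in the knockdown libraries lay close to the 27 to 31 CPM of NTC.

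Squalene and lanosterol steps came next in the pathway. Fdft1, squalene synthase, had 47.2, 49.1 and 45.6 CPM with shMed4 #1 and 46.8, 48.2 and 48.9 CPM with shMed4 #4, against 35.8, 28.9 and 37.6 CPM with NTC. Sqle, squalene epoxidase, had 120, 124 and 134 CPM with shMed4 #1 and 141, 136 and 142 CPM with shMed4 #4, against 97.8, 83.0 and 85.2 CPM with NTC. Neither gene overlapped NTC in any knockdown library, with log2 fold changes of 0.47 and 0.49 for Fdft1 (adjusted p = 1.47e-05 and 4.11e-06) and 0.51 and 0.66 for Sqle (adjusted p = 1.53e-08 and 1.15e-11). Relative to its neighbours, Sqle changed by 0.43 with shMed4 #4 (adjusted p = 2.64e-07). Fdft1 shares 18.3% of its exon bases with Ctsb on the other strand, which had 34745 reads against 3169 for Fdft1. Ctsb did not rise (log2 -0.00 and -0.23). Lss, lanosterol synthase, had 25.1, 26.1 and 27.3 CPM with shMed4 #1, 33.3, 33.4 and 38.5 CPM with shMed4 #4 and 23.9, 27.4 and 26.6 CPM with NTC. It therefore rose with shMed4 #4 (log2 0.43 ± 0.09, adjusted p = 8.51e-05), and with shMed4 #1 overlapped NTC (0.01 ± 0.09, adjusted p = 0.926).

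The steps from lanosterol to cholesterol held the largest rises of the sterol enzymes. Hsd17b7, the ketone reductase of the complex that strips methyl groups from the sterol ring, had 26.5, 28.8 and 28.3 CPM with shMed4 #1 and 27.4, 29.4 and 35.7 CPM with shMed4 #4, against 12.1, 10.7 and 11.2 CPM with NTC. Every knockdown library was above every NTC library, the hairpins overlapped, and the level was 2.46-fold higher with shMed4 #1 (adjusted p = 5.56e-12) and 2.72-fold higher with shMed4 #4 (adjusted p = 9.8e-14). Dhcr7, the reductase that makes cholesterol in the last step of one branch, had 37.5, 41.4 and 39.1 CPM with shMed4 #1, 61.5, 54.6 and 56.9 CPM with shMed4 #4 and 20.8, 23.9 and 21.8 CPM with NTC. Here the 3 groups separated fully, at 1.78-fold (adjusted p = 6.39e-10) and 2.6-fold (adjusted p = 6.67e-17) over NTC. Neighbours of Dhcr7 were higher too, with medians of 0.13 with shMed4 #1 and 0.21 with shMed4 #4. Over all alternatives Dhcr7 stayed called, with log2 values down to 0.70 with shMed4 #1 and 1.17 with shMed4 #4. Cyp51, the lanosterol demethylase, had 97.4, 96.3 and 95.8 CPM with shMed4 #1, 108, 101 and 99.8 CPM with shMed4 #4 and 71.8, 69.9 and 65.8 CPM with NTC. Msmo1, the methyl sterol oxidase, had 96.8, 108 and 94.5 CPM with shMed4 #1, 114, 114 and 120 CPM with shMed4 #4 and 76.6, 70.8 and 72.3 CPM with NTC. Both were above all NTC libraries in every knockdown library, with log2 fold changes of 0.48 and 0.57 for Cyp51 and 0.44 and 0.67 for Msmo1 (adjusted p at most 2.8e-07). Relative to its neighbours, the Cyp51 value with shMed4 #4 was 0.86.

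Smaller rises and uncertain members completed the late steps. Sc5d, lathosterol oxidase, rose by log2 0.43 ± 0.06 with shMed4 #1 and 0.51 ± 0.06 with shMed4 #4 (adjusted p = 4.11e-07 and 4.32e-09), with 83.5 to 94.4 CPM in knockdown libraries and 64.7 to 66.2 CPM in NTC. Nsdhl, the decarboxylating dehydrogenase that acts with Hsd17b7, rose by 0.26 and 0.29 (adjusted p = 0.0163 and 0.00668), but its call with shMed4 #1 was lost without NTC replicate 1 (adjusted p = 0.071) and without shMed4 #1 replicate 2 (adjusted p = 0.109), and by the DESeq2 test (0.0563). Ebp, the sterol isomerase, had 41.9, 42.6 and 42.5 CPM with shMed4 #1, 50.7, 49.0 and 52.2 CPM with shMed4 #4 and 31.6, 29.8 and 31.8 CPM with NTC. Its groups did not overlap (log2 0.44 and 0.70), but the genes around it on chromosome X were also higher, with a median of 0.47 and 0.51. Relative to these neighbours Ebp changed by -0.02 with shMed4 #1 (adjusted p = 0.848) and by 0.19 with shMed4 #4 (adjusted p = 0.0323). Tm7sf2, a sterol reductase that shares its step with Lbr, had 241 reads in all and passed in neither comparison (log2 -0.32 and -0.27). It shares 12.1% of its exon bases with Vps51.

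**Figure D2:**
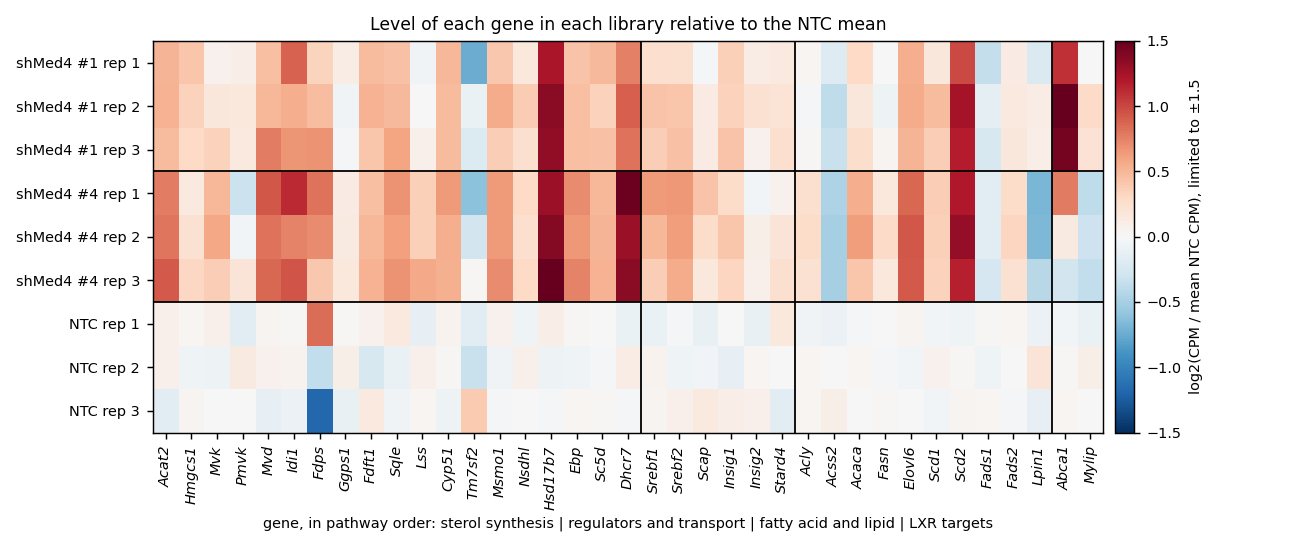
Each cell shows log2 of a library's CPM over the mean NTC CPM, limited to ±1.5 (colour scale), with libraries as rows (shMed4 #1, shMed4 #4, then NTC) and the 37 genes as columns in pathway order. Red columns in the sterol block span all 6 knockdown rows; Fdps varies most among the NTC rows, at 2.98, 1.29 and 0.736 CPM.

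Genes of the SREBP circuit itself rose less than the largest enzyme changes. Of the 6 regulators and transport genes, 4 rose with shMed4 #1 (66.7%, against 21.8% of all genes tested) and 5 with shMed4 #4 (83.3%, against 27.8%). None of these 6 was called lower, against 19.8% and 27.3% of all genes tested. Srebf2, which encodes the sterol-directed factor, had 188, 212 and 215 CPM with shMed4 #1 and 249, 245 and 234 CPM with shMed4 #4, against 157, 152 and 168 CPM with NTC. All 3 groups were apart, with log2 fold changes of 0.37 ± 0.06 (adjusted p = 1.64e-06) and 0.61 ± 0.06 (adjusted p = 9.25e-12). The genes around Srebf2 were also higher, with medians of 0.20 and 0.23, and relative to them it changed by 0.16 with shMed4 #1 (adjusted p = 0.0224) and by 0.38 with shMed4 #4 (adjusted p = 5.95e-07). Srebf1, which encodes the lipogenic forms, had 72.1, 81.8 and 78.2 CPM with shMed4 #1 and 94.6, 85.4 and 78.2 CPM with shMed4 #4, against 56.8, 62.9 and 62.2 CPM with NTC. It lay above NTC in every knockdown library (log2 0.35 and 0.51, adjusted p = 0.000103 and 1.11e-07), and gene-level counts do not separate its isoforms. Per exon length the Srebf2 to Srebf1 ratio was 2.03 to 2.16 with shMed4 #1, 2.07 to 2.34 with shMed4 #4 and 1.90 to 2.17 with NTC, so the groups overlapped in this ratio.

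Insig1, a sterol-sensitive retention factor that SREBPs themselves induce, had 50.6, 50.3 and 53.1 CPM with shMed4 #1 and 47.8, 52.5 and 49.5 CPM with shMed4 #4, against 39.8, 36.4 and 42.2 CPM with NTC. Its knockdown libraries all exceeded NTC and overlapped each other (log2 0.38 and 0.34, adjusted p = 8.44e-05 and 0.000237). Its neighbours on chromosome 5 had medians of -0.13 and -0.29, and relative to them it changed by 0.63 with shMed4 #4 (adjusted p = 6.57e-09). The related Insig2 passed in neither comparison (log2 0.13 and 0.04), with 37.1 to 44.8 CPM in knockdown libraries and 35.4 to 40.5 CPM in NTC. Scap, the escort protein, passed with shMed4 #4 alone (log2 0.29, adjusted p = 0.0009, against 0.08 and adjusted p = 0.425 with shMed4 #1), and relative to its neighbours the shMed4 #4 value was 0.10 (adjusted p = 0.283). Scap also shares 13.2% of its exon bases with 5830462I19Rik on the other strand.

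Stard4, a carrier of cholesterol between membranes, gave the least stable rises among the regulators, at log2 0.20 (adjusted p = 0.0217) and 0.17 (adjusted p = 0.039). Its ranges overlapped, with 79.8 to 85.5 CPM for shMed4 #1, 75.3 to 85.6 CPM for shMed4 #4 and 64.2 to 80.8 CPM for NTC. The shMed4 #1 call was lost without NTC replicate 2 (adjusted p = 0.0637), NTC replicate 3 (0.213) or shMed4 #1 replicate 3 (0.0885). The shMed4 #4 call was lost without NTC replicate 2 (adjusted p = 0.0912), NTC replicate 3 (0.311), shMed4 #4 replicate 2 (0.0887) or shMed4 #4 replicate 3 (0.151). With upper-quartile factors neither call held (adjusted p = 0.054 with shMed4 #1 and 0.133 with shMed4 #4), nor by the DESeq2 test (0.0583 and 0.0791), while relative to its neighbours Stard4 changed by 0.27 with shMed4 #4 (adjusted p = 0.00166).

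**Figure D3:**
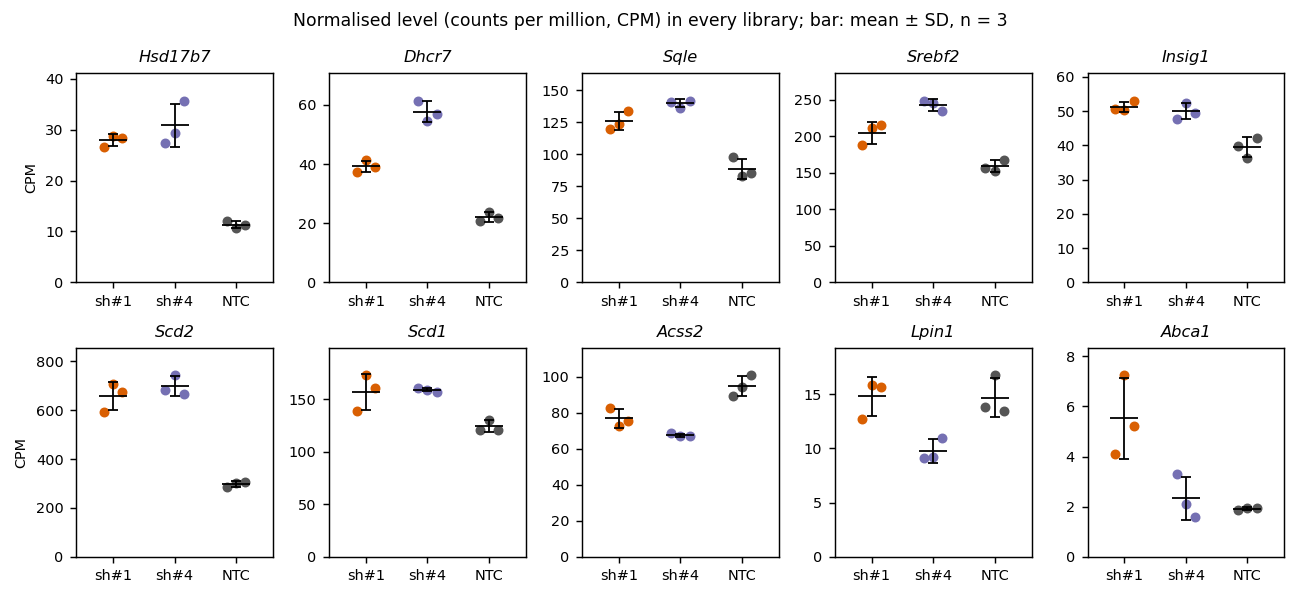
CPM in every library for 10 genes, with shMed4 #1 (sh#1), shMed4 #4 (sh#4) and NTC from left to right, bars giving mean ± SD (n = 3 each) and every vertical axis starting at 0. Scd2 stood at 592 to 745 CPM in knockdown libraries and 286 to 306 CPM in NTC, while Acss2 was lower in knockdown libraries and Abca1 was high with shMed4 #1 alone.

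Fatty acid and lipid genes were called in both directions. Of 10 genes, 5 rose and 2 fell with shMed4 #1 (50% and 20%, against 21.8% and 19.8% of all genes tested), with a median log2 fold change of 0.08. With shMed4 #4, 7 rose and 3 fell (70% and 30%, against 27.8% and 27.3%), with a median of 0.26. The shares that fell are thus close to those of all genes. Scd2, a stearoyl-CoA desaturase that makes monounsaturated fatty acids, had 592, 707 and 675 CPM with shMed4 #1 and 683, 745 and 668 CPM with shMed4 #4, against 286, 302 and 306 CPM with NTC. Every knockdown library was well above NTC and the hairpins overlapped (2.21-fold and 2.34-fold higher, adjusted p = 6.09e-19 and 2.69e-20). The paralog Scd1 had 139, 173 and 160 CPM with shMed4 #1 and 160, 159 and 157 CPM with shMed4 #4, against 121, 130 and 121 CPM with NTC. It too was above NTC in all 6 libraries, by a smaller 1.27-fold and 1.28-fold (adjusted p = 1.99e-05 and 5.75e-06). Per exon length, Scd2 stood 3.66 to 3.81 times as high as Scd1 with shMed4 #1 and 3.80 to 4.2 times with shMed4 #4, against 2.07 to 2.27 times with NTC. The groups of knockdown libraries did not overlap NTC in this ratio. Both genes lie side by side on chromosome 19, where their neighbours had medians of -0.16 with shMed4 #1 and -0.19 to -0.20 with shMed4 #4. Relative to them Scd1 changed by 0.56 with shMed4 #4 (adjusted p = 9.82e-10).

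Among genes that supply, build and lengthen fatty acid chains, Elovl6, Acaca, Fasn and Acly rose with shMed4 #4. Elovl6 and Acaca rose with shMed4 #1 as well. Acss2, another source of acetyl-CoA for this synthesis, fell in both knockdowns and is described below. Elovl6, which elongates palmitate, had 70.6, 71.1 and 68.7 CPM with shMed4 #1 and 87.5, 92.0 and 91.1 CPM with shMed4 #4, against 49.6, 47.1 and 48.2 CPM with NTC. The 3 groups were apart, at 1.45-fold (adjusted p = 1.38e-08) and 1.87-fold (adjusted p = 5.4e-15). Acaca, acetyl-CoA carboxylase, which makes malonyl-CoA, had 59.3, 54.3 and 58.0 CPM with shMed4 #1, 70.9, 74.5 and 64.7 CPM with shMed4 #4 and 47.4, 49.5 and 48.4 CPM with NTC. It rose by log2 0.24 (adjusted p = 0.00572) and 0.53 (adjusted p = 2.82e-08), with the groups apart. Acaca shares 29.2% of its 50-base stretches with the pseudogene Gm5182, which had 52 reads. Fasn, fatty acid synthase, had 194, 185 and 201 CPM with shMed4 #1, 218, 237 and 217 CPM with shMed4 #4 and 194, 193 and 197 CPM with NTC. Acly, which makes cytosolic acetyl-CoA from citrate, had 151, 146 and 150 CPM with shMed4 #1, 175, 179 and 173 CPM with shMed4 #4 and 143, 151 and 151 CPM with NTC. Both passed with shMed4 #4 alone (log2 0.20 and 0.24, adjusted p = 0.00126 and 0.000133), and with shMed4 #1 overlapped NTC (-0.01 and 0.01). Relative to its neighbours, Fasn changed by 0.14 with shMed4 #1 (adjusted p = 0.0402) and by 0.35 with shMed4 #4 (adjusted p = 7.39e-07).

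Acss2, which makes acetyl-CoA from acetate and feeds the same synthesis, fell in both knockdowns. It had 82.5, 72.5 and 75.4 CPM with shMed4 #1 and 68.5, 67.0 and 66.9 CPM with shMed4 #4, against 89.4, 94.0 and 101 CPM with NTC. All knockdown libraries were below NTC (log2 -0.30 ± 0.06 and -0.49 ± 0.06, adjusted p = 0.000149 and 3.33e-08). Its neighbours were lower too, with medians of -0.15 and -0.20, and relative to them Acss2 changed by -0.16 with shMed4 #1 (adjusted p = 0.0484) and by -0.29 with shMed4 #4 (adjusted p = 0.000292). Polyunsaturated fatty acid desaturases split. Fads1 fell, at 103, 120 and 112 CPM with shMed4 #1 and 117, 117 and 111 CPM with shMed4 #4, against 134, 126 and 135 CPM with NTC (log2 -0.24 and -0.19, adjusted p = 0.00107 and 0.00467). Fads2 rose slightly, at 90.1, 91.6 and 92.8 CPM with shMed4 #1 and 100, 103 and 97.2 CPM with shMed4 #4, against 84.7, 82.1 and 81.3 CPM with NTC (log2 0.15 and 0.28, adjusted p = 0.0411 and 9.45e-05). Neither gene overlapped NTC in any knockdown library. Per exon length, the Fads2 to Fads1 ratio was 1.12 to 1.28 with shMed4 #1 and 1.25 to 1.29 with shMed4 #4, against 0.877 to 0.95 with NTC. The Fads2 call with shMed4 #1 was lost without NTC replicate 2 (adjusted p = 0.102), NTC replicate 3 (0.109), shMed4 #1 replicate 2 (0.0813) or shMed4 #1 replicate 3 (0.11). It was also lost with upper-quartile factors (0.108), by the DESeq2 test (0.0912) and with no filter on low counts (0.0785). Relative to its neighbours, the shMed4 #4 value of Fads2 was 0.11 (adjusted p = 0.106) and that of Fads1 was -0.37 (adjusted p = 1.86e-06). Lpin1, a phosphatidic acid phosphatase of glycerolipid synthesis, had 12.7, 15.9 and 15.7 CPM with shMed4 #1, 9.15, 9.19 and 11 CPM with shMed4 #4 and 13.8, 16.8 and 13.5 CPM with NTC. It fell with shMed4 #4 (log2 -0.58 ± 0.14, adjusted p = 0.000448) and overlapped NTC with shMed4 #1 (0.01 ± 0.13).

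The pair of LXR targets differed between the hairpins. Abca1, the cholesterol exporter, had 4.10, 7.26 and 5.21 CPM with shMed4 #1, 3.29, 2.11 and 1.59 CPM with shMed4 #4 and 1.87, 1.94 and 1.96 CPM with NTC, from 241 reads in all. Only the shMed4 #1 libraries were all above NTC (log2 1.52 ± 0.27, adjusted p = 1.42e-05), while shMed4 #4 overlapped NTC (0.28 ± 0.32, adjusted p = 0.482). Mylip had 40.8, 49.4 and 47.1 CPM with shMed4 #1, 31.1, 32.7 and 31.5 CPM with shMed4 #4 and 37.8, 43.3 and 40.7 CPM with NTC. It fell with shMed4 #4 (log2 -0.35, adjusted p = 0.000535) and did not pass with shMed4 #1 (0.17, adjusted p = 0.0792). Without shMed4 #1 replicate 1, Mylip passed with shMed4 #1 as well (0.25, adjusted p = 0.014). Its neighbours on chromosome 13 were lower, with medians of -0.22 and -0.43, and relative to them Mylip changed by 0.40 with shMed4 #1 (adjusted p = 0.000137) and by 0.07 with shMed4 #4 (adjusted p = 0.488).

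Between genes, levels can be compared only per length, as CPM per kilobase of exon (RPKM). In every group Scd2 stood highest, with 120 ± 11 RPKM for shMed4 #1, 128 ± 7.4 RPKM for shMed4 #4 and 54.5 ± 2.0 RPKM for NTC (SD, n = 3 each). The next in NTC were Acly (28.1 ± 0.94 RPKM), Fads1 (27.4 ± 1.0 RPKM), Scd1 (25.4 ± 1.1 RPKM) and Fads2 (25.1 ± 0.54 RPKM). Of these neighbours, Acly and Fads1 lay within their SDs, as did Scd1 and Fads2. With shMed4 #4, Srebf2 (33.8 ± 1.1 RPKM) and Acly (33.3 ± 0.56 RPKM) came next, followed by Scd1 (32.5 ± 0.33 RPKM). Among sterol enzymes Hmgcs1, Sqle and Cyp51 were the most abundant, with NTC means of 19.7, 16 and 15.7 RPKM. Hsd17b7, which rose most, was among the lowest of them in NTC (2.22 ± 0.13 RPKM) and reached 5.46 ± 0.24 RPKM with shMed4 #1 and 6.04 ± 0.84 RPKM with shMed4 #4. Abca1 was lowest of all in NTC, at 0.185 ± 0.0049 RPKM, against 0.533 ± 0.15 RPKM with shMed4 #1 and 0.225 ± 0.084 RPKM with shMed4 #4.

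**Figure D4:**
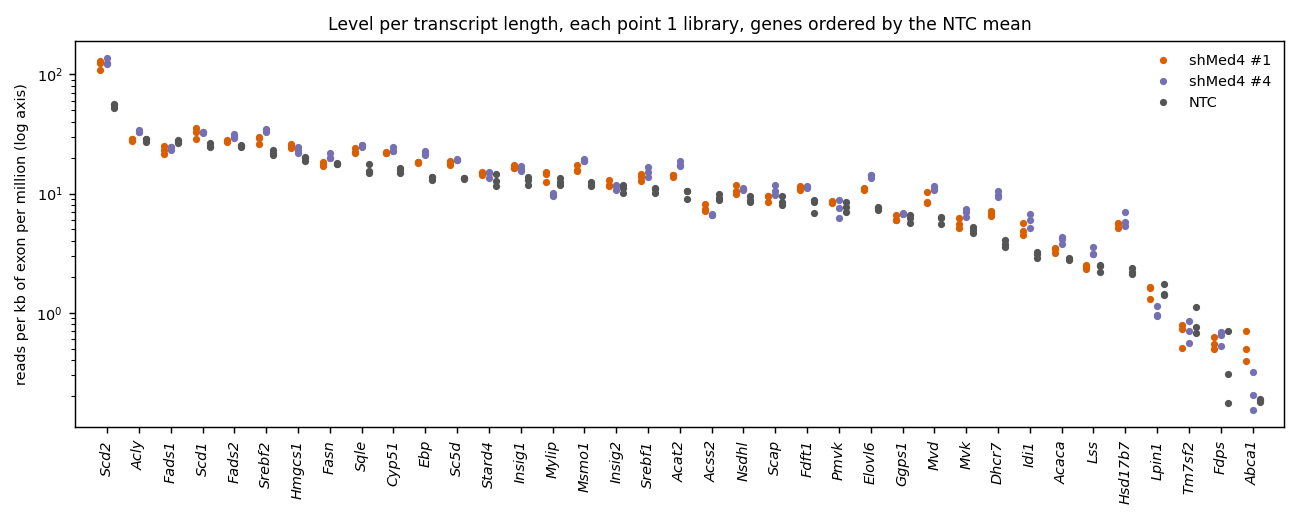
RPKM of the 37 genes on a log axis, 1 point per library, with shMed4 #1, shMed4 #4 and NTC from left to right within each gene and genes ordered by their NTC mean. Scd2 lies highest in all libraries, and the spread of Fdps in NTC is the widest.

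The knockdowns were also compared directly, in the same model, so the NTC libraries enter the estimate of the spread but not the difference itself. shMed4 #4 gave 12 of the 37 genes a higher level than shMed4 #1 and 4 a lower one, or 32.4% and 10.8%, against 14.2% higher and 13.9% lower among all genes tested. The median log2 difference was 0.13. In sterol synthesis, 6 of 19 were higher with shMed4 #4. They were Dhcr7 (log2 0.55 ± 0.08, adjusted p = 3.62e-07), Lss (0.42), Acat2 (0.33), Mvd (0.28), Ebp (0.26) and Msmo1 (0.22). The Mvd difference (adjusted p = 0.0487) was lost without NTC replicate 1 (0.0508) or 2 (0.0537), without shMed4 #1 replicate 1 (0.16) or 2 (0.158), and without shMed4 #4 replicate 1 (0.129), 2 (0.0617) or 3 (0.0838). It was also lost with upper-quartile factors (0.0639), by the DESeq2 test (0.138), with no filter on low counts (0.0653), in a fit of both knockdowns alone (0.0571) and with the neighbours' shift taken off (0.267). None of the 19 was called lower with shMed4 #4 than with shMed4 #1. Sqle (0.15, adjusted p = 0.051) and Mvk (0.29, adjusted p = 0.0532) were near the threshold and passed in some other fits. Sqle passed without NTC replicate 1 (adjusted p = 0.0374), NTC replicate 3 (0.0464) or shMed4 #1 replicate 3 (0.0294), and in a fit of both knockdowns alone (0.0498). With DESeq2's size factors both passed (0.0435 for Sqle and 0.0494 for Mvk), as did Sqle under other low-count filters (0.0456 with none and 0.0497 with 1 CPM in 3 libraries), and Mvk without shMed4 #1 replicate 3 (0.032) or shMed4 #4 replicate 3 (0.0405). Idi1 (0.24, adjusted p = 0.103) passed without shMed4 #1 replicate 1 (0.0339) or shMed4 #4 replicate 2 (0.039), and relative to its neighbours (0.32, adjusted p = 0.0329), as did Cyp51 relative to its own (0.22, adjusted p = 0.00463).

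In the other classes, shMed4 #4 was higher for Srebf2 (0.24, adjusted p = 0.000857), Scap (0.21), Elovl6 (0.36, adjusted p = 1.06e-05), Acaca (0.29), Acly (0.24) and Fasn (0.21). It was lower for Abca1 (-1.24 ± 0.25, adjusted p = 0.000251), Lpin1 (-0.59, adjusted p = 0.00096), Mylip (-0.53, adjusted p = 4.76e-06) and Acss2 (-0.19, adjusted p = 0.0291). The strongest enzyme rises against NTC apart from Dhcr7 did not pass here, with Hsd17b7 at 0.15 ± 0.09 and Scd2 at 0.09 ± 0.06. The Scap difference (adjusted p = 0.0239) was lost without shMed4 #1 replicate 1 (0.093) or shMed4 #4 replicate 1 (0.169), by the DESeq2 test (0.0611) and relative to its neighbours (0.0902). That of Acss2 was lost without shMed4 #1 replicate 1 (0.189) or 3 (0.0534), or without shMed4 #4 replicate 1 (0.0536), 2 (0.0919) or 3 (0.0842), by the DESeq2 test (0.0815), with no filter on low counts (0.0663) and relative to its neighbours (0.147). Srebf1 (0.15, adjusted p = 0.085) passed without shMed4 #4 replicate 3 (0.0212) and relative to its neighbours (0.25, adjusted p = 0.00445). Med4 itself was higher with shMed4 #4 than with shMed4 #1, as given above, and what part this has in these differences was not tested.

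**Figure D5:**
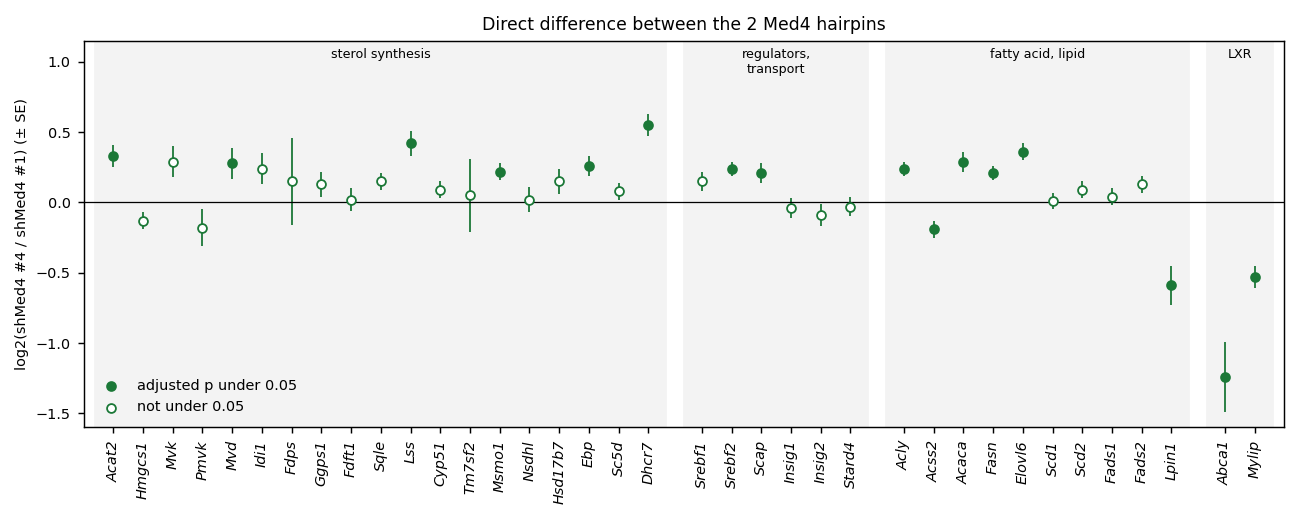
Log2 ratio of shMed4 #4 over shMed4 #1 for each of the 37 genes (vertical axis, bars ± SE), in pathway order along the horizontal axis. Filled points passed adjusted p under 0.05; Dhcr7 is highest at 0.55 and Abca1 lowest at -1.24.

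Genes of neighbouring pathways were taken from 6 further lists of 82 genes, of which 75 passed the low-count filter, and were counted in the same way. With shMed4 #1, 24 rose and 15 fell (32% and 20%, median 0.05), against 21.8% and 19.8% of all genes tested. With shMed4 #4, 34 rose and 14 fell (45.3% and 18.7%, median 0.10), against 27.8% and 27.3%. The same shares of all genes are the background of each list. Of 7 measured further sterol enzymes, 4 rose with shMed4 #1 (57.1%) and 5 with shMed4 #4 (71.4%), and none fell. Soat2, which esterifies cholesterol for storage, averaged 13.4 ± 0.99 CPM with shMed4 #1 and 16.4 ± 1.8 CPM with shMed4 #4, against 6.33 ± 1.3 CPM with NTC (SD, n = 3 each; log2 1.08 and 1.37, adjusted p = 3.66e-07 and 5.31e-10). Neighbours of Soat2 were higher too, with medians of 0.18 and 0.38. Soat1, a relative of Soat2, passed with shMed4 #4 alone (log2 0.44, adjusted p = 4.95e-09, against 0.13 and adjusted p = 0.0588). Lbr, the sterol reductase of the inner nuclear membrane, rose by 0.48 and 0.47 (adjusted p = 1.89e-08 and 1.82e-08).

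Uptake and trafficking genes went both ways. Of 14 measured, 5 rose and 7 fell with shMed4 #1 (35.7% and 50%), and 5 rose and 5 fell with shMed4 #4 (35.7% each). Lipa, the lysosomal lipase that frees cholesterol from lipoproteins, averaged 58.3 ± 5.0 CPM with shMed4 #1 and 35.9 ± 3.4 CPM with shMed4 #4, against 70.2 ± 3.3 CPM with NTC (log2 -0.27 and -0.97, adjusted p = 0.0027 and 2.16e-13 by edgeR). Among lipoprotein receptors, Vldlr fell (-0.46 and -0.68, adjusted p = 2.39e-08 and 9.98e-13) and Lrp8 rose (0.22 and 0.65, adjusted p = 0.018 and 1.01e-09). Of 8 isoprenoid branch genes, 1 rose and 1 fell with shMed4 #1 (12.5% each), both below the shares of all genes. With shMed4 #4, 3 rose and 1 fell (37.5% and 12.5%), and 4 did not pass. Nus1, needed for dolichol synthesis, rose (0.28 and 0.41) and Pggt1b, a protein prenyl transferase subunit, fell (-0.19 and -0.34). The prenylation genes Fnta (0.24) and Icmt (0.25) passed with shMed4 #4 (adjusted p = 0.00136 and 0.00117) and not with shMed4 #1 (-0.00 and 0.07).

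Genes that process SREBPs gave 2 up and 3 down of 12 with shMed4 #1 (16.7% and 25%), close to the 21.8% and 19.8% of all genes tested. With shMed4 #4 they gave 5 up and 3 down (41.7% and 25%), against 27.8% and 27.3%. The protease gene Mbtps1, whose product makes the first cut in SREBPs, rose by 0.30 and 0.42 (edgeR adjusted p = 9.45e-06 and 8.57e-09). Genes around Mbtps1 were also higher, with medians of 0.18 and 0.28. Of the COPII coat genes that carry Scap, Sec23a rose (0.44 and 0.41) and Sec24b fell (-0.18 and -0.38).

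Among 25 measured further fatty acid and lipid genes, 9 rose and 1 fell with shMed4 #1 (36% and 4%), and 13 rose and 3 fell with shMed4 #4 (52% and 12%). Fads3, a desaturase-like gene in the same cluster as Fads1 and Fads2, averaged 86.9 ± 3.7 CPM with shMed4 #1 and 106 ± 3.8 CPM with shMed4 #4, against 11.8 ± 0.11 CPM with NTC (log2 2.88 and 3.16, adjusted p = 4.42e-26 and 2.82e-28 by edgeR). This was larger than the change of any of the 37 genes, while medians of its neighbours were -0.02 and 0.16. Acyl-CoA synthetases Acsl3 (0.75 and 0.90) and Acsl5 (0.71 and 0.71) rose in both knockdowns, as did Mid1ip1 (0.63 and 0.75), which promotes acetyl-CoA carboxylase assembly and whose neighbours on chromosome X had medians of 0.50 and 0.51. In the LXR list, 3 of 9 rose and 3 fell with shMed4 #1 (33.3% each), and 3 rose and 2 fell with shMed4 #4 (33.3% and 22.2%). Abcg1, another exporter, averaged 14.5 ± 0.51 CPM with shMed4 #1 and 10.0 ± 0.91 CPM with shMed4 #4, against 4.38 ± 1.6 CPM with NTC (log2 1.72 and 1.19, adjusted p = 1.59e-10 and 1.07e-06), so unlike Abca1 it passed in both. Lpcat3, a phospholipid remodelling enzyme, rose (0.47 and 0.77), Arl4c, a small GTPase, rose (0.26 and 0.93), and Rxra, the partner of LXR, fell (-0.31 and -0.60).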

How the data were processed

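RNA from 9 libraries of D2A1-d cells was run on a BGISEQ-500 sequencer (per the labels' protocols). The submitters' processing notes name STAR for alignment, HTSeq for counting and mm10 (GRCm38) as the genome; neither their versions nor the use of strand is given in the sources used here. The deposited values are raw read counts per gene, 1 file per library, not normalised. Lines that name no gene were left out; of all records, reads in no gene made up 49.5 to 51.6%, reads aligned to several places 10.5 to 11.6% and ambiguous reads 0.863 to 0.951%. As the use of strand is unknown, counts of genes that overlap on opposite strands are uncertain. Of the 37 genes, 13 overlap exons of another gene, 10 of them on the other strand, and 9 share at least 5% of their 50-base stretches with another gene.

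Of 55335 gene identifiers, 55154 matched GENCODE M21 (GRCm38) without version, which gave symbols, exon lengths and overlaps. Promoter windows came from RefSeq on GRCm38.p6. For 34 of the 38 windows, the bases just after the window occurred in an annotated transcript of the gene, or a transcript's first bases occurred in or just after the window. This check does not place a window at an annotated transcript start. Genes were kept by filterByExpr (minimum count 10; 14335 genes), scaled by TMM (factors 0.969 to 1.03) and fitted in 1 model with 3 groups by edgeR 4.0.16 in R 4.3.3 (glmQLFit, glmQLFTest), with Benjamini-Hochberg adjustment over all genes tested and a threshold of 0.05. The SE is the log2 fold change divided by the square root of F. Each library counted as its own replicate. No pair within a group agreed within sampling noise, but this cannot show whether the libraries came from separate transductions. Alternatives were DESeq2 1.42.0 (size factors and Wald test), upper-quartile factors, other filters (none, or 1 CPM in 3 libraries), only the groups compared, the replicate number as a block, removal of the median shift of 25 tested genes on each side, and leaving out each library.

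The 37 genes, the lists and the tests were chosen with earlier results of these data known. Beside the 37, the named genes are up to 4 called genes per list with the smallest adjusted p in either comparison with NTC, Med4, and genes that share sequence with a member; some genes this rule takes are not reported here.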

Additional observations from a re-analysis of the deposited data

Results flagged for a closer look

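The knockdowns differed from each other in 16 of the 37 genes by a direct test of shMed4 #4 over shMed4 #1 (edgeR quasi-likelihood, adjusted p under 0.05), which is what singles them out. With shMed4 #4, 32.4% of the 37 were higher and 10.8% lower, against 14.2% and 13.9% of all genes tested. The calls of Mvd, Scap and Acss2 did not hold under every alternative. The values are log2 differences with n = 3 libraries in each knockdown. Higher with shMed4 #4 were the sterol enzymes Dhcr7 (0.55), Lss (0.42), Acat2 (0.33), Mvd (0.28), Ebp (0.26) and Msmo1 (0.22). So were the regulators Srebf2 (0.24) and Scap (0.21), and the fatty acid genes Elovl6 (0.36), Acaca (0.29), Acly (0.24) and Fasn (0.21). Lower with shMed4 #4 were Abca1 (-1.24), Lpin1 (-0.59), Mylip (-0.53) and Acss2 (-0.19). Groups of 3 libraries are too small for an outlier test of a single library, so none was made. Fits that left out each library in turn are given beside the results.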

How the results depend on the processing

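Counts of called genes stayed within 1.5 times under each alternative. Over them, 22 to 26 of the 37 genes were called with shMed4 #1, 27 to 32 with shMed4 #4 and 13 to 18 between the hairpins. With shMed4 #1, 20 to 24 were higher and 2 lower, against 2642 to 3216 and 2234 to 3240 of all genes. With shMed4 #4, 24 to 28 were higher and 3 to 4 lower, against 3483 to 4192 and 3306 to 4452. Between the hairpins, 10 to 14 were higher and 3 to 4 lower, against 1533 to 2097 and 1424 to 2138. The number of genes tested differed between some fits. Calls held under all 17 alternatives for 21 of 25, 26 of 31 and 13 of 16 genes; the exceptions were Nsdhl, Ebp, Stard4 and Fads2 with shMed4 #1, Mvk, Scap, Stard4, Fads2 and Mylip with shMed4 #4, and Mvd, Scap and Acss2 between the hairpins. Same-numbered libraries did not deviate together (correlations of -0.059 to 0.035). With 3 libraries in each group, this cannot show whether same-numbered libraries shared a culture or a day. With the replicate block, 24 genes (22 higher, 2 lower) were called with shMed4 #1, 30 (26 higher, 4 lower) with shMed4 #4 and 15 (11 higher, 4 lower) between the hairpins; it ended the calls of Fads2 with shMed4 #1 (adjusted p = 0.0513), Stard4 with shMed4 #4 (0.0534) and Mvd between the hairpins (0.0571), and no other.

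Sign changes were mostly of log2 values near 0 that had not passed, and the cause was not tested. With upper-quartile factors, Ggps1, Lss, Acly and Lpin1 each stood at -0.02 with shMed4 #1, Insig2 at -0.003 with shMed4 #4 and Scd1 at -0.0001 between the hairpins. With the neighbours' shift removed, shMed4 #1 gave Mvk -0.0023, Ggps1 -0.04, Ebp -0.02 (a call lost), Scap -0.07 and Fasn 0.14. The same step gave Insig2 -0.11 and Mylip 0.07 (a call lost) with shMed4 #4. Between the hairpins it gave Hmgcs1 0.06, Nsdhl -0.04, Insig1 0.13, Fads1 -0.14 and Fads2 -0.05. Leaving out each library in turn, shMed4 #1 gave Ggps1 -0.04 to 0.06, Lss -0.04 to 0.05, Acly -0.02 to 0.02, Fasn -0.04 to 0.02 and Lpin1 -0.05 to 0.11. It gave Pmvk -0.17 to 0.09, Insig2 -0.01 to 0.09 and Abca1 -0.05 to 0.50 with shMed4 #4. Between the hairpins it gave Fdft1 -0.0047 to 0.05, Tm7sf2 -0.11 to 0.21, Nsdhl -0.02 to 0.09, Stard4 -0.06 to 0.03, Scd1 -0.06 to 0.09 and Fads1 -0.01 to 0.10.

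Depth limits Fdps (163 reads), Tm7sf2 and Abca1 (241 reads each). A p that misses the threshold there does not show equal levels.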
